A study of Homo sapiens with 6 samples.

Results

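The genes described here are VCL, CALD1, TPM4, CNN2, DSTN, CFL2 and PFN2, 7 of the 14884 genes that could be named on the arrays, which build, anchor or turn over contractile actin filaments. They were chosen by their lower values on the siCSRP2 arrays in an earlier reading of this same comparison, from lists of targets of serum response factor (SRF) and of actin genes, so their differences between the groups are described and not tested. Each gene is given by its brightest probe set. Gene expression was measured with Affymetrix HuGene 2.0 arrays in Hs578T, an established human breast cancer cell line. Both groups grew in DMEM containing insulin (0.01 mg/ml) and fetal bovine serum (10%) and received a lipid-carried siRNA, which was non-targeting in siControl and against CSRP2, a LIM domain protein of actin filaments, in siCSRP2. Cells were moved to new wells 24 h after transfection and lysed 48 h after that, and each group held 3 arrays. All values come from 1 cell line, and the labels give neither the sequence nor the number of the siRNAs. Nothing in the labels says that replicates were separate cultures, so each p-value speaks of array-to-array spread that may be technical.

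SRF is a transcription factor that binds a short sequence called the CArG box in the promoters of actin and contractile genes. Its cofactors MRTFA and MRTFB are held in the cytoplasm by actin monomers and enter the nucleus when monomers are used up by filament assembly, so that the state of the filaments feeds back on the genes that build them. Cofilins, destrin and profilins set the supply of monomers, whereas tropomyosins, calponins and caldesmon sit along the filament and vinculin ties it to adhesions.

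The CArG box was sought in RefSeq promoter windows (GRCh38.p14) of 300 bases, 250 before and 50 from the start site on, as CC, then 6 letters that were each A or T, then GG, a pattern that reads the same on both strands. It lay in 454 of 35116 windows (1.29%) and in 438 of 27305 genes (1.6%). Of the 7 genes, 6 had a window, and CNN2 and TPM4 held the box. By window it was in 2 of the 12 windows of these 6 genes. The genes came from lists of SRF targets and of actin genes, so nothing is read from how many held the box. PFN2 had no entry in the table. The bases before the start site of both genes are shown because they carry this shared feature, with the box in capitals.
CNN2, chr19:1026358-1026607, plus strand: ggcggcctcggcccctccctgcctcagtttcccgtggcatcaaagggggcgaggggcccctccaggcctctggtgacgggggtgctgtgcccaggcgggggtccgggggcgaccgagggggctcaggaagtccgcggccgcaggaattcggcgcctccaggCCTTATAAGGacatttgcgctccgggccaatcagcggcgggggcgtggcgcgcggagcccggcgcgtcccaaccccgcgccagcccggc
TPM4, chr19:16067288-16067537, plus strand: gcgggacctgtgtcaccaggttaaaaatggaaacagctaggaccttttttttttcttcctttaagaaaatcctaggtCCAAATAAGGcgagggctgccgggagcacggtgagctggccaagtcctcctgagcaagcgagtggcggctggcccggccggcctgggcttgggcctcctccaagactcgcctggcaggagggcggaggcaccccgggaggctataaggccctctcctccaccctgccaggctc

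The CNN2 box lay at positions -89 to -80 from the start site, and the TPM4 box at -173 to -164 in the window of the most upstream of its 3 start sites. Both boxes of the SRF gene itself, at -30 to -21 and -10 to -1, and the box of SVIL, an actin-binding gene described further on, are shown for comparison.
SRF, chr6:43171229-43171258, plus strand: ctggggctcaCCATATAAGGagcggcctcg
SRF, chr6:43171249-43171278, plus strand: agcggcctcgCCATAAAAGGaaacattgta
SVIL, chr10:29634985-29635014, minus strand: cgagttcaggCCATAAAAGGcccgtcccat

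No window of VCL, CALD1, DSTN or CFL2 held the exact box, which says only that these letters are not in these windows. A version 1 letter off the box was in a window of CALD1, CFL2 and TPM4, 3 of 6 genes, and of 21.3% of all genes. By window it was in 5 of their 12 windows and in 17.9% of all windows. The letters GGAATG or their reverse complement CATTCC, the core bound by TEAD factors, were in a window of VCL and CALD1, 2 of the 6 genes. They were in a window of 16.7% of all genes and in 4928 of the 35116 windows. These matches describe sequence, not binding.

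The arrays did not form 2 clean groups. siControl 3 correlated about equally across genes with the other controls (mean r = 0.967) and with the siCSRP2 arrays (mean r = 0.966). CSRP2 itself differed by -0.26 on the log2 scale (SE 0.26) with overlapping groups (limma, adjusted p = 0.583; exact two-sided permutation p = 0.5, where 0.1 is the smallest that 3 against 3 can give). It was lower in each pair of equal replicate number (log2 differences -0.44, -0.24 and -0.09), and in the fit with the replicate block the difference had an SE of 0.12, an interval of -0.53 to 0.01 and an adjusted p of 0.188. The target did not pass in either fit, so it does not check the labels, and siCSRP2 means the arrays so labelled. Values of bright genes were lower on the siCSRP2 arrays in general: the median difference was 0.02 over all genes and -0.15 over the 7442 genes above the median level of 2.99. Each of the 7 genes lay above that level. Of the markers measured, 8 of 8 mesenchymal markers lay above the median level. Of these 8, 6 were lower in siCSRP2 at a limma adjusted p under 0.05, where 6.54% of all genes were. In a separate fit without the dimmest 50% of genes, 15.3% were lower. TWIST1 (-0.29, limma adjusted p = 0.192) and ZEB1 (-0.09, adjusted p = 0.72) did not pass. The mean level of the 8 ran from 6.50 to 6.82 on siControl and from 5.70 to 5.99 on siCSRP2 arrays. Of the luminal epithelial markers 4 of 7 lay above the median level: the keratins KRT18 (mean 7.74) and KRT8 (3.69), GATA3 (3.74) and EPCAM (3.28). KRT18 differed by -0.74 (limma adjusted p = 0.0635, and 0.00746 with the replicate block), and oestrogen receptor ESR1 lay below the median level (2.67). Of the smooth muscle markers 1 of 3 lay above it, desmin (DES, 3.05). The 1 leukocyte marker (CD14, 2.64) and the 3 endothelial markers (PECAM1 2.53, VWF 2.57 and KDR 2.33) lay below it. No marker of these other cell types passed the test without the block. The part of these shifts in the values below was not tested, and in RNA from whole cultures fewer cells of a kind and less RNA per cell cannot be told apart.

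All 7 genes had lower means in siCSRP2, by 0.51 to 0.95 on the log2 scale. In order of size the differences were -0.95 for CNN2, -0.87 for PFN2, -0.71 for VCL, -0.62 for CFL2, -0.54 for CALD1 and DSTN and -0.51 for TPM4. Their median was -0.62. The siCSRP2 array was lower in 21 of 21 same-numbered pairs, and 26.6% of all genes were lower in each of 3 pairs. The groups did not overlap for 6 of the 7 genes, against 16.2% of all genes that were lower without overlap (27.8% of the genes above the median level) and 11.5% that were higher. Because the genes were chosen on this comparison, nothing is read from these counts.

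**Figure D1:**
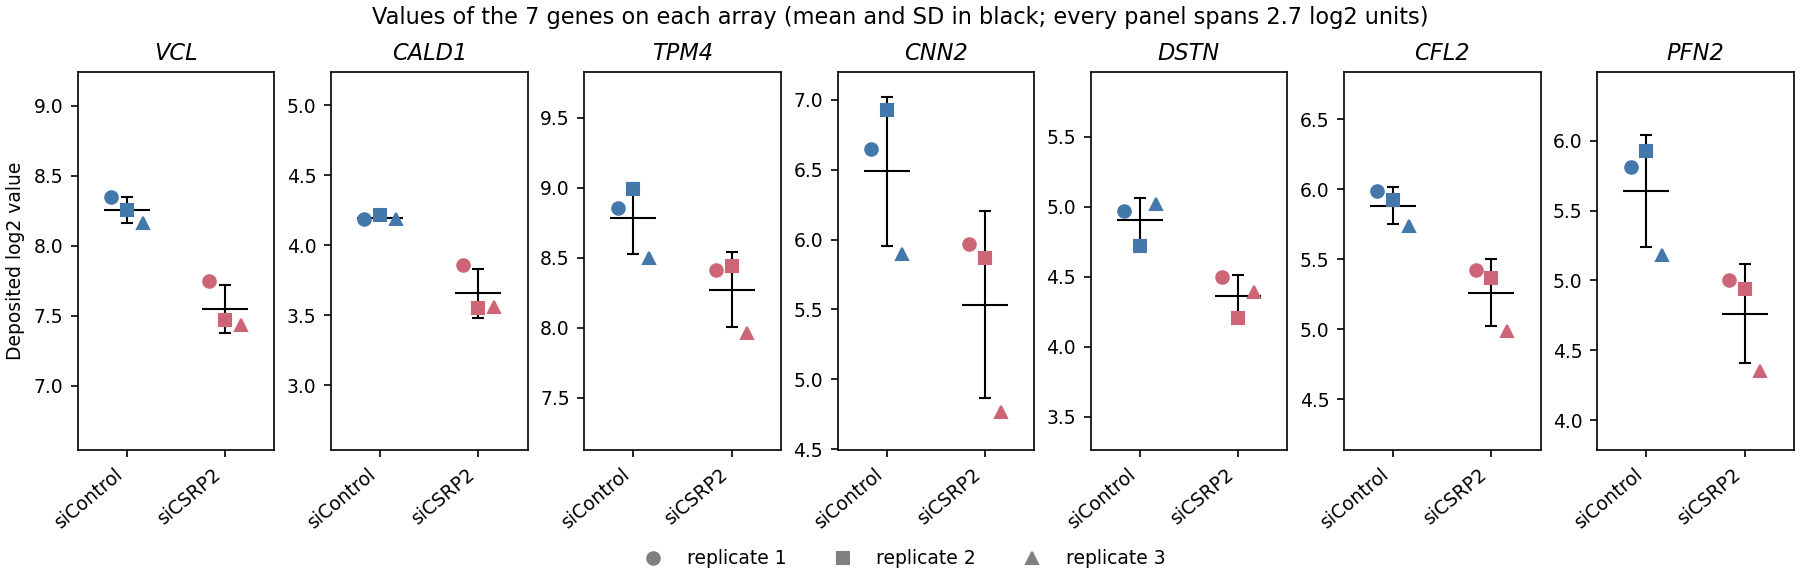
Deposited log2 values (y axis) of the 7 genes on the 3 siControl (blue) and 3 siCSRP2 (red) arrays, with the replicate number as the symbol and the group mean and SD in black. The groups are apart in every panel except CNN2, where siControl 3 (5.89) lies below siCSRP2 1 (5.97).

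VCL encodes vinculin, which links talin at integrin adhesions to actin filaments. It measured 8.34, 8.26 and 8.16 on siControl 1 to 3 and 7.74, 7.47 and 7.43 on siCSRP2 1 to 3. The lowest control was 0.42 above the highest siCSRP2 array. The means were 8.26 ± 0.09 and 7.55 ± 0.17 (SD, n = 3), a 1.63-fold difference (log2 difference -0.71, SE 0.12, 95% interval -0.99 to -0.43).

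CALD1 encodes caldesmon, a calmodulin-regulated protein of actin filaments that restrains myosin. The 3 controls were close together at 4.19, 4.22 and 4.19. The siCSRP2 arrays measured 3.86, 3.55 and 3.56, each below every control and spread wider than the controls. The difference was 1.46-fold (log2 difference -0.54, SE 0.12, interval -0.81 to -0.27). After quantile normalization it was -0.41.

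TPM4 encodes tropomyosin 4, a non-muscle coiled-coil protein laid along the actin filament. Its values were 8.86, 8.99 and 8.50 on siControl and 8.41, 8.44 and 7.96 on siCSRP2 arrays. The groups were just apart, by 0.06 between siControl 3 and siCSRP2 2, and replicate 3 was the lowest of both groups. The log2 difference was -0.51 (SE 0.17, interval -0.91 to -0.11), a 1.43-fold change of the signal.

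CNN2 encodes calponin 2, a filament-binding protein of smooth muscle and non-muscle cells. It measured 6.65, 6.93 and 5.89 on siControl and 5.97, 5.87 and 4.77 on siCSRP2 arrays. It had both the largest difference of the 7 genes and the widest spread, with ranges of 1.03 and 1.20 within the groups, and the groups overlapped. The difference was 1.94-fold (log2 difference -0.95, SE 0.35, interval -1.75 to -0.16). Its size moved with single arrays: it was -1.25 without siControl 3 and -0.57 without siCSRP2 3. Within the same-numbered pairs 1, 2 and 3 it was -0.68, -1.05 and -1.13.

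A second probe set was annotated to CNN2, and RefSeq lists 11 CNN2 pseudogenes whose transcripts may share probe sequence. That probe set was dim, at 3.75, 3.93 and 3.48 on siControl and 3.47, 3.46 and 3.42 on siCSRP2 arrays. Its difference of -0.27 had the same direction and was smaller. The other 6 genes had 1 named probe set each; RefSeq lists 3 pseudogenes of TPM4 and 4 of DSTN.

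DSTN encodes destrin, or actin depolymerizing factor, which severs filaments and frees monomers. It measured 4.97, 4.72 and 5.02 on siControl and 4.50, 4.21 and 4.39 on siCSRP2 arrays. Replicate 2, not 3, was the lowest of both groups, and the groups were 0.22 apart. The log2 difference was -0.54 (SE 0.13, interval -0.83 to -0.25). It was -0.35 after quantile normalization and -0.38 after cyclic loess.

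CFL2 encodes cofilin 2, the muscle-type cofilin, which severs aged filaments as destrin does. It measured 5.99, 5.93 and 5.73 on siControl and 5.43, 5.37 and 4.99 on siCSRP2 arrays. The groups were 0.31 apart and replicate 3 was the lowest of both. The difference was 1.54-fold (log2 difference -0.62, SE 0.14, interval -0.95 to -0.29).

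PFN2 encodes profilin 2, which loads actin monomers for filament growth and binds formins. It measured 5.81, 5.92 and 5.18 on siControl and 5.0, 4.94 and 4.35 on siCSRP2 arrays. siControl 3 lay 0.18 above the highest siCSRP2 array and 0.63 below the next control. The difference was 1.83-fold (log2 difference -0.87, SE 0.23, interval -1.40 to -0.35), and -1.10 without siControl 3.

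**Figure D2:**
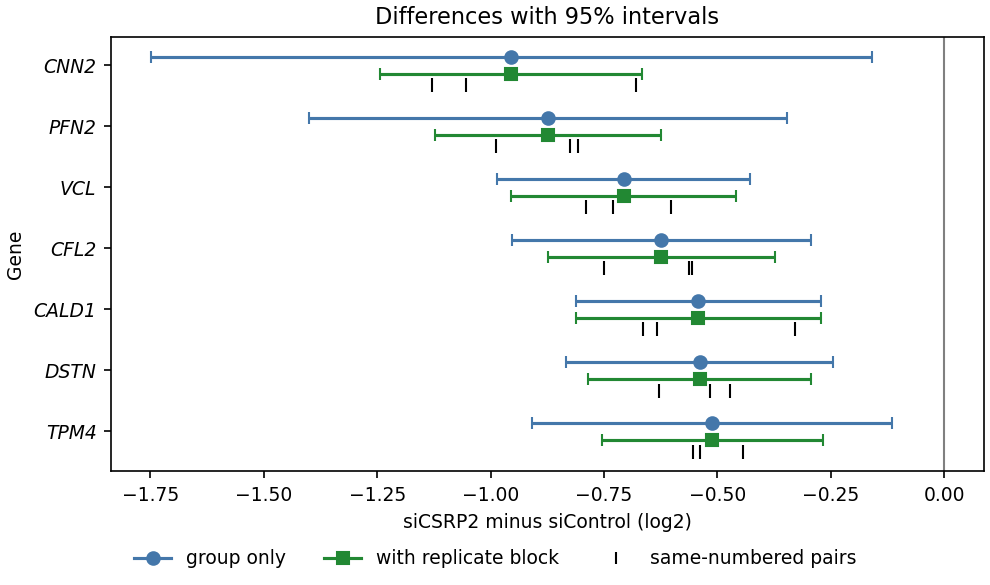
Log2 differences, siCSRP2 minus siControl (x axis), of the 7 genes, with 95% intervals from the fit with the group alone (circles) and from that with replicate number as block (squares); ticks mark the 3 same-numbered pairs. The interval of CNN2 runs from -1.75 to -0.16 without the block and from -1.24 to -0.67 with it, while that of CALD1 hardly changes.

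The genes differed in how they varied inside the groups. CNN2, PFN2, TPM4 and CFL2 were low on replicate 3 of both groups: their deviations from the group mean ran from -0.59 to -0.15 on siControl 3 and from -0.77 to -0.27 on siCSRP2 3, and each was above 0 on the other 4 arrays. VCL, CALD1 and DSTN did not share this, with deviations of -0.09 to 0.11 on siControl 3 and -0.11 to 0.02 on siCSRP2 3. This split was made after the values were seen and has no test.

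**Figure D3:**
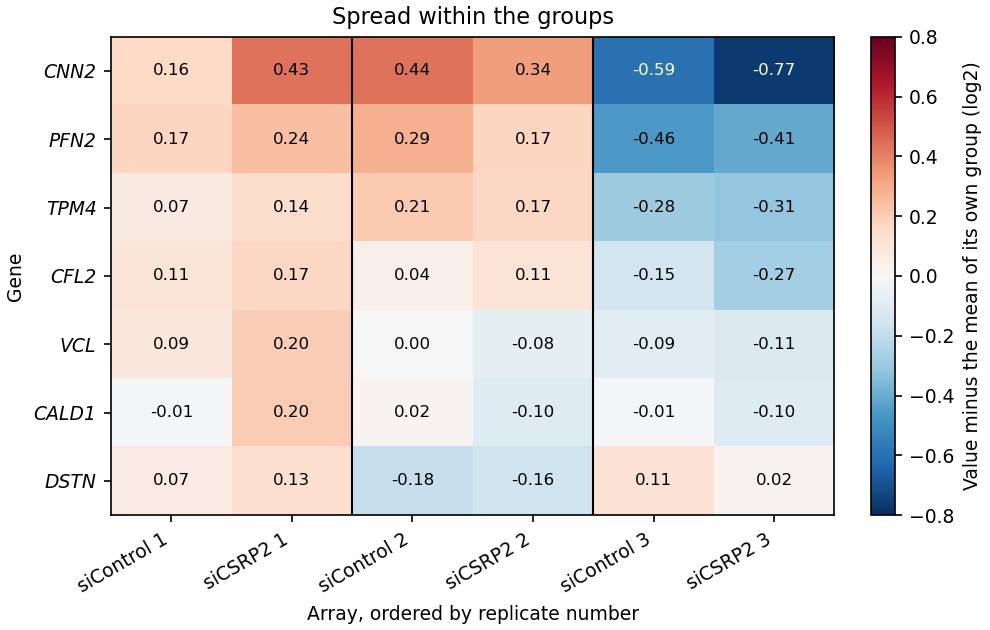
Each cell gives the value of a gene (rows) on an array (columns, ordered by replicate number) minus the mean of its own group, in log2 units and as colour. The 4 upper genes are below their group means on both replicate 3 arrays, down to -0.59 and -0.77 for CNN2, and the 3 lower genes stay within -0.18 and 0.20 on all arrays.

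Pairing the arrays by replicate number narrowed the error of some genes more than of others. The SE went from 0.35 to 0.13 for CNN2, from 0.23 to 0.11 for PFN2 and from 0.17 to 0.11 for TPM4. It also went from 0.14 to 0.11 for CFL2, from 0.13 to 0.11 for DSTN and from 0.12 to 0.11 for VCL. For CALD1 it stayed at 0.12. Within pairs 1, 2 and 3 the differences were -0.68, -1.05 and -1.13 for CNN2, -0.81, -0.99 and -0.83 for PFN2 and -0.44, -0.55 and -0.54 for TPM4.

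VCL, CALD1, DSTN and CFL2, 4 of the 7 genes, were past an adjusted p of 0.05 in the fit with group alone, where 6.54% of all genes were lower past it and 0.8% higher. With the replicate number as a block it was 7 of 7, against 13.1% of all genes lower (2.67% higher). The 3 genes that the block added are CNN2, PFN2 and TPM4, of those low on replicate 3. These counts follow from how the genes were chosen, and the percentages are the background to read them by.

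The count moved with the setting, and so did the background. It was 1 (VCL) after quantile normalization, where 4.47% of genes were lower past the threshold, and after cyclic loess (4.62%). After median centring it was 5 (9.88%), and 5 with quantile normalization and the block together (9.98%). With the dimmest 25% of genes left out it was 5 (9.57%), with the dimmest 50% left out 5 (15.3%), and with the probe sets of each gene averaged 4 (6.28%). Array weights gave 7 (15.6%), and a variance trend with robust moderation gave 2 (6.23%).

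The count and the background also moved when 1 array was left out. All 7 genes passed without siControl 3 (14.7% of genes lower), and VCL, CALD1 and CFL2 passed without siCSRP2 1 (4.95%). None passed in limma without siControl 1 (1% of genes), siControl 2 (0.578%), siCSRP2 2 (1.22%) or siCSRP2 3 (1.74%). In these fits 5, 5, 7 and 5 had an unadjusted p under 0.05. The share of all genes at that unadjusted level is not given here, so these counts and those of the lists below have no background. The 7 genes were chosen on this comparison, so nothing is read from their counts. The direction did not turn: the difference was below 0 for each gene under each of 16 alternatives, 112 of 112 values.

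**Figure D4:**
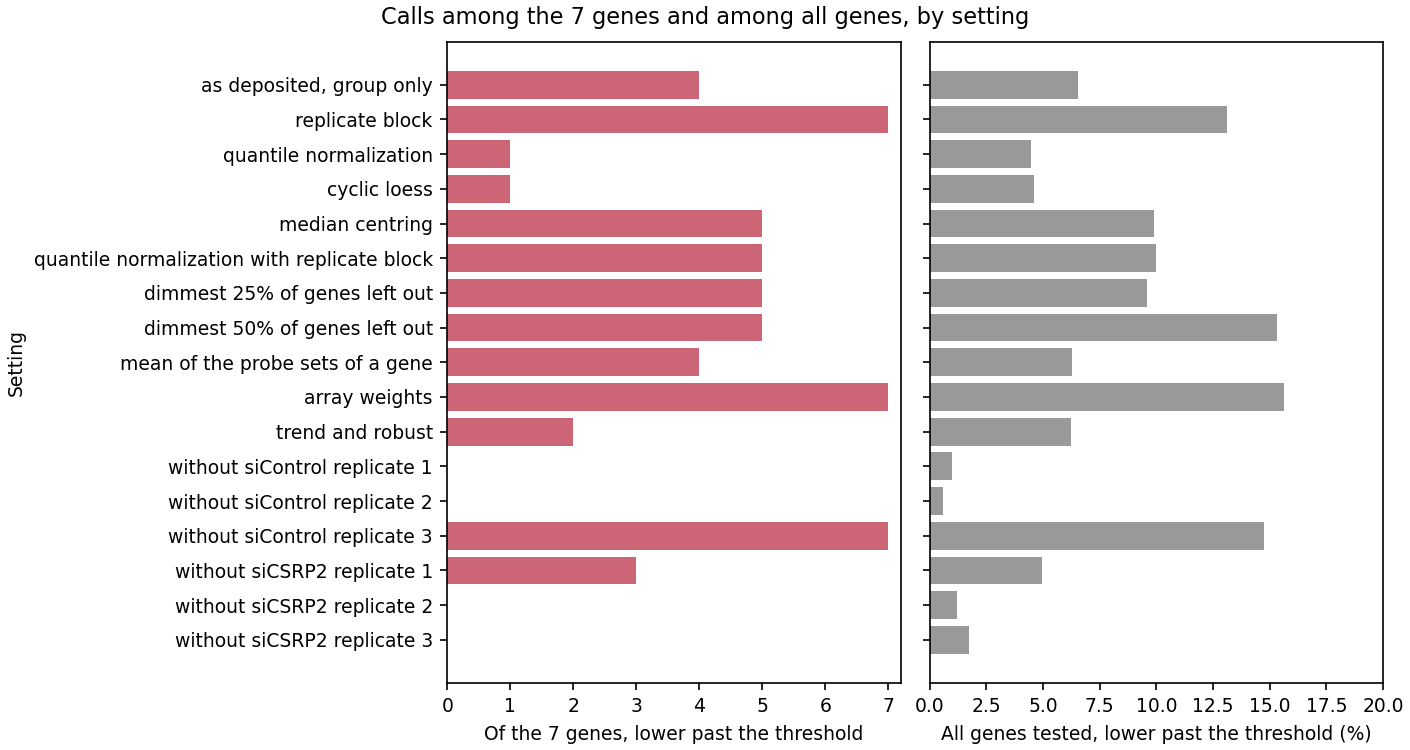
Number of the 7 genes lower past an adjusted p of 0.05 (left, x axis) and percentage of all genes tested that were (right, x axis), for the values as deposited and each of 16 alternatives (y axis). The ends were 0 genes and 0.578% without siControl 2, and 7 genes and 15.6% with array weights. The order in between was not the same in both panels: leaving out the dimmest 50% of genes gave 5 genes at 15.3%, and the block gave 7 at 13.1%.

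Of 13 paralogues of the 7 genes listed, 5 were named on the arrays. None of these 5 passed in limma, with or without the block, where 6.54% of all genes fell without it, and 2 were lower and 1 higher at an unadjusted p under 0.05. TPM2, a tropomyosin beside TPM4, measured 4.67, 4.84 and 4.72 on siControl and 4.45, 4.41 and 4.31 on siCSRP2 arrays (log2 difference -0.35, SE 0.11, limma adjusted p = 0.0853), and passed after median centring and with array weights. TPM1 differed by -0.27 (SE 0.12, adjusted p = 0.207). With quantile normalization the differences were -0.17 for TPM2 and -0.14 for TPM1.

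PFN1, the ubiquitous profilin, measured 8.10, 8.15 and 7.85 on siControl and 7.82, 7.95 and 7.42 on siCSRP2 arrays, with the lowest value of each group on replicate 3, as for PFN2. Its difference was -0.30 (SE 0.16, interval -0.67 to 0.06, adjusted p = 0.294), and -0.14 without siCSRP2 3. CFL1, the non-muscle cofilin, was listed near the median level at 3.27, 3.23 and 3.27 and then 3.36, 3.23 and 3.19. Its difference was 0.0 (SE 0.10, interval -0.23 to 0.24), and the sign turned in 6 of 16 alternatives. At so dim a level, with no background level at hand, this does not show that CFL1 was unchanged. RefSeq lists 8 pseudogenes of CFL1 and 10 of PFN1. PFN3, of testis, lay below the median level and differed by 0.28 (adjusted p = 0.205). The difference between a gene and its paralogue was not tested. The alpha-catenins, TPM3, CNN1, CNN3, PFN4 and the 6 actins were not analysed here.

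Among SRF and its cofactors the SRF cofactor MRTFB fell. It measured 5.24, 5.37 and 4.27 on siControl and 3.84, 3.91 and 3.69 on siCSRP2 arrays, a 2.22-fold difference (log2 difference -1.15, SE 0.26, limma adjusted p = 0.0351). siControl 3 lay between both other controls and the siCSRP2 arrays, and without it the difference was -1.49. SRF itself measured 4.74, 5.07 and 4.52 and then 4.48, 4.76 and 4.43, with overlapping groups (-0.22, SE 0.16, interval -0.59 to 0.14, adjusted p = 0.444). The SRF difference was -0.08 without siControl 2, -0.35 without siControl 3 and -0.04 with quantile normalization. MRTFA went the other way, at 4.595, 5.06 and 5.37 and then 5.12, 5.52 and 5.60 (0.40, SE 0.21, adjusted p = 0.282), and rose with the block (adjusted p = 0.0492). Without siControl 1 the MRTFA difference was 0.20 (adjusted p = 0.653).

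Of 13 measured genes in that list 1 fell, none rose and 12 did not pass, with a median difference of -0.22. The 1 is 7.69% of the list, against 6.54% of all genes and 15.3% of genes with the dimmest 50% left out. Here and for the lists below, the 15.3% comes from a separate fit to the 7442 brighter genes, with its own adjustment. The list shares come from the fit to all genes, so they and the 15.3% differ in genes and in adjustment. At an unadjusted p under 0.05, 6 were lower and 0 higher. The other genes of smallest adjusted p were the YAP family coactivators WWTR1 (-0.47, SE 0.12, adjusted p = 0.0526) and YAP1 (-0.50, SE 0.14, adjusted p = 0.0684) and their DNA-binding partner TEAD1 (-0.39, SE 0.10, adjusted p = 0.0603). With the block, where 13.1% of all genes fell, 5 fell, MRTFB with CSRP1, WWTR1, YAP1 and TEAD1. With quantile normalization and the block WWTR1 (-0.30, limma adjusted p = 0.109), YAP1 (-0.32, adjusted p = 0.13) and TEAD1 (-0.23, adjusted p = 0.215) did not pass.

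Of 23 measured genes of actin turnover and nucleation, 4 fell, none rose and 19 did not pass (median -0.16; 9 lower and 0 higher at an unadjusted p under 0.05). The 4 are 17.4% of the list, against 6.54% of all genes and 15.3% of genes with the dimmest 50% left out, and 18 of the 23 lay above the median level. SVIL, which encodes supervillin, a gelsolin relative that binds actin and myosin II and whose promoter holds a CArG box, measured 4.90, 5.01 and 4.70 on siControl and 4.15, 4.14 and 4.09 on siCSRP2 arrays (log2 difference -0.74, SE 0.11, limma adjusted p = 0.0115). The formins FMNL2 (-0.75, SE 0.14, adjusted p = 0.0188), DIAPH3 (-0.55, SE 0.13, adjusted p = 0.0373) and DIAPH2 (-0.52, SE 0.12, adjusted p = 0.0375), which nucleate unbranched filaments, fell as well. With the block 8 fell, where 13.1% of all genes fell. The additions were GSN, which encodes the severing protein gelsolin, the cofilin kinase LIMK1, the cofilin phosphatase SSH2 and the formin FHOD3.

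Among 17 measured partners of vinculin at adhesions, 2 fell, none rose and 15 did not pass (median -0.10). At an unadjusted p under 0.05, 4 were lower and 0 higher. The 2 are 11.8% of the list, against 6.54% of all genes and 15.3% of genes with the dimmest 50% left out. TNS3, a tensin that links integrin tails to actin, measured 4.19, 4.51 and 3.83 on siControl and 3.14, 2.95 and 2.69 on siCSRP2 arrays, a 2.38-fold fall (log2 difference -1.25, SE 0.19, limma adjusted p = 0.0105). ENAH, which protects growing filament ends, fell by 0.48 (SE 0.12, adjusted p = 0.046). TNS1 (-0.56, adjusted p = 0.058) and TNS2 (-0.72, adjusted p = 0.0967) passed with the block (adjusted p = 0.0209 and 0.015).

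Of 13 measured genes of myosin II, its control and filament ends, 1 fell and none rose, and the median was 0.07 (-0.01 after median centring). The 1 is 7.69% of the list, against 6.54% of all genes and 15.3% of genes with the dimmest 50% left out. At an unadjusted p under 0.05, 3 were lower and 4 higher. TMOD1, which encodes tropomodulin 1, a cap of the slow filament end, measured 4.97, 5.01 and 4.98 on siControl and 4.65, 4.22 and 4.08 on siCSRP2 arrays (-0.67, SE 0.15, limma adjusted p = 0.0367). The myosin light chain kinase gene MYLK, whose promoter also holds a CArG box, differed by -0.44 (SE 0.12, adjusted p = 0.07) and fell with the block (adjusted p = 0.0336). LMOD1 (0.35, adjusted p = 0.0993) and the kinase gene DAPK3 (0.45, adjusted p = 0.107) were higher, and DAPK3 rose with the block (adjusted p = 0.0384).

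Over these lists together 8 of 71 measured genes fell, 11.3%, against 6.54% of all genes and 15.3% of genes with the dimmest 50% left out, and none rose in limma, with a median of -0.11; 24 were lower and 5 higher at an unadjusted p under 0.05. The median of the 71 lay between that of all genes and that of the genes above the median level, to which 55 of the 71 belong. Only those 55 were in the separate fit that gave the 15.3%, and 9 of them fell there, TNS1 with the 8. With the block 19 fell and 2 rose, where 13.1% of all genes fell. The number that fell changed when 1 array was left out, as did the share of all genes. None fell in limma without siControl 2 (0.578% of all genes lower) or siCSRP2 2 (1.22%). In these 2 fits 19 and 25 were lower at an unadjusted p under 0.05. Without siControl 1 (1%) 1 fell (FMNL2), without siCSRP2 3 (1.74%) 2 (TNS3 and SVIL) and without siControl 3 (14.7%) 14. The differences of the 8 stayed below 0 in each of 16 alternatives, from -1.42 to -1.08 for TNS3 and from -0.57 to -0.30 for ENAH. TNS3 and SVIL passed in 13 of 16 alternatives each, and ENAH and DIAPH2 in 7. The CArG box was in a promoter window of MYLK, SVIL, FHL2, SRF and SMTN among the measured genes of these lists, whose differences were -0.44, -0.74, -0.31, -0.22 and 0.29, and of these SVIL passed the test.

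**Figure D5:**
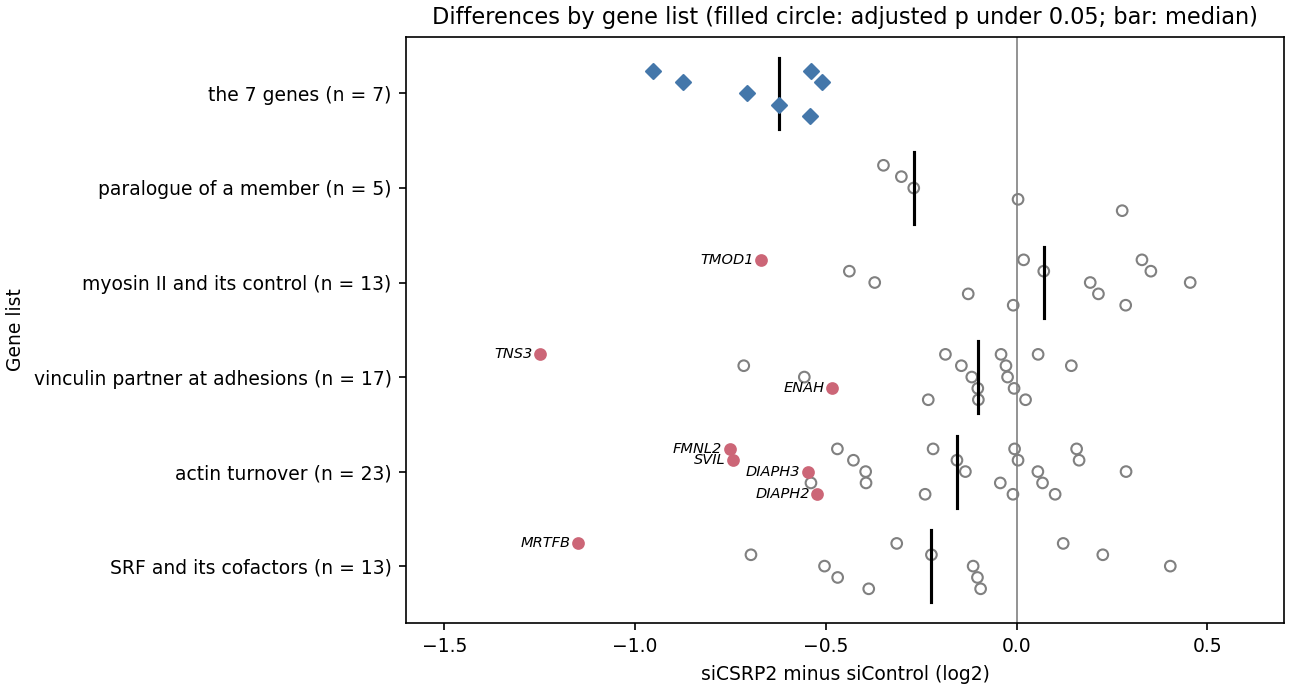
Log2 differences, siCSRP2 minus siControl (x axis), of the 7 genes (diamonds, not tested) and of the measured genes of each other list (circles, y axis), with list medians as bars; filled circles are past an adjusted p of 0.05 in limma. The 8 filled circles are falls, from -0.48 (ENAH) to -1.25 (TNS3), and the medians of these other lists run from -0.27 to 0.07 (-0.36 to -0.01 after median centring).

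The genes whose profile over the 6 arrays was most like the mean profile of the 7 genes, by root mean square distance of centred log2 values among 7442 genes above the median level, were EEA1 (0.0422), RHNO1 (0.0509), SRP9 (0.0534), PHYKPL (0.0547), PRDX6 (0.0605) and LHFPL6 (0.0632). EEA1, which encodes a tether of early endosomes, measured 5.53, 5.58 and 5.28 on siControl and 5.02, 4.87 and 4.62 on siCSRP2 arrays. These 6 were picked as the nearest of the 7442 genes, so their closeness follows from the choice and nothing is read from it. They lay closer to the mean profile than 6 of the 7 genes themselves did: CFL2 was at 0.0557, TPM4 at 0.110, VCL at 0.113, CALD1 at 0.157, PFN2 at 0.174, DSTN at 0.249 and CNN2 at 0.349.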

How the data were processed

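The authors deposited 1 log2 value per probe set and array; base 2 was inferred from the range of the values. The submitters' processing notes name Partek and give neither its version nor its role. Background correction, summarisation, normalization and the genome build: not given in the sources used here. An array has no count depth, and precision is limited by how few arrays there are. Of 53617 probe sets, 16098 had exactly 1 gene symbol in the platform's annotation. The other 37519 did not and were left out, so a gene not named here may still have probe sets. Symbols were updated through a RefSeq table (GRCh38.p14), which matched all 16098. Each gene took its brightest probe set, with no filter on dim genes.

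The comparison used lmFit and eBayes of limma 3.58.1 (R 4.3.3) with group as the only term, Benjamini-Hochberg adjusted over all 14884 genes, two-sided, at a threshold of 0.05. On simulated data of 14884 genes for this comparison, it recovered 74 of 100 genes changed by 1 log2 unit and 98 of 100 changed by 2, with 10 false calls. The simulated noise was independent from array to array, unlike that of these arrays, and no change under 1 log2 unit was simulated. These figures therefore do not give the recovery or the false calls of the fit on these arrays. Same-numbered arrays deviated together across genes (r = 0.305, 0.187 and 0.321). The main fit does not use this pairing, and the replicate block was run as an alternative. The pairing comes from the data, since the labels tie no number to a plate or day. 16 alternatives were run.

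The 7 genes and the lists of related genes were chosen with earlier results of these data known. Named are the 7 genes, CSRP2, SRF, MRTFA, MRTFB, the paralogues, list genes past the threshold, up to 4 of the smallest adjusted p in each list, and the 6 genes nearest the mean profile. Genes added by the block, FHL2 and SMTN, and the cell type markers were chosen after their values were seen or serve as checks.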

Additional observations from a re-analysis of the deposited data

How the results depend on the processing

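All genes: on the values as deposited 974 fell and 119 rose. In the fit with the replicate block 1950 fell and 398 rose, with quantile normalization 666 fell and 210 rose, with cyclic loess 687 fell and 197 rose, with quantile normalization and the block 1486 fell and 524 rose, and with array weights 2327 fell and 597 rose. After median centring 1471 fell. With 1 array left out, falls ran from 86 to 2193 and rises from 5 to 427. Of the 7 genes, 4 passed as deposited, 7 with the block and with array weights, 1 with quantile normalization and with cyclic loess, 2 with trend and robust moderation, and 0 to 7 with 1 array left out. Of the 71 related genes, 8 fell as deposited, 19 with the block, 5 with quantile normalization, 17 with median centring, 18 with array weights, 5 with trend and robust moderation and 0 to 14 with 1 array left out. None of them rose as deposited, while 2 rose with the block, 4 with quantile normalization and the block, 4 with array weights and 0 to 2 with 1 array left out. The near-zero difference of CFL1 turned to -0.00893 with quantile normalization (with and without the block), -0.082 with median centring, -0.00347 with array weights and ran from -0.0445 (without siCSRP2 1) to 0.0386 (without siCSRP2 3) with 1 array left out. CSRP2 did not pass in any of the 16 alternatives (-0.51 to -0.01 with 1 array left out). The causes were not tested. The median of the 7 differences was -0.47 with quantile normalization, -0.49 with cyclic loess and -0.71 with median centring. With quantile normalization the list medians were -0.14 for the paralogues, -0.05 for vinculin's partners, -0.17 for SRF and its cofactors, -0.15 for actin turnover and 0.11 for myosin II. No background level was at hand, so dim genes such as CFL1 have no marked limit.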
